A study of Rattus norvegicus with 12 samples.

Results

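The calpain system of skeletal muscle was described from 5 genes, Capn1, Capn2, Capn3, Capns1 and Cast, taken by their symbols from a table of 24648 gene rows in 12 RNA-seq libraries. Capns1 was chosen by its counts, which were uneven between libraries, so its values are given as a description with no test, while the other 4 were taken as parts of the same system. All 5 passed the filter on low counts that left 14225 genes. The libraries came from skeletal muscle of male rats aged 540 days whose dams had received either a protein-restricted diet (6% protein, in gestation and lactation per the series description) or a control diet, whose composition is not given in the sources used here; neither strain, litter nor dam is named. The title numbers, with a gap between 15 and 23, form 2 sets, with restriction libraries 32, 33 and 35 and control libraries 23, 28 and 29 in set 2, and restriction libraries 12, 13 and 15 and control libraries 3, 8 and 9 in set 1. The series description speaks of soleus and extensor digitorum longus muscle, but no label ties a library to a muscle, so the sets are called by number. Replicates are libraries, and nothing says that they came from separate animals, so p-values measure the spread between libraries, which may be technical in part.

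Total counts ran from 22829692 to 38313704 per library, and values are given as CPM, the counts out of 1000000 counts of a library after TMM scaling of the library sizes. The 8 slow-fibre markers (such as Myh7 and Tnnt1) summed to between 1670 and 5460 CPM in set 2 and to between 91200 and 106000 CPM in set 1. The 10 fast-fibre markers (such as Myh4 and Actn3) summed to between 154000 and 195000 CPM in set 2 and to between 7950 and 16100 CPM in set 1. None of these muscle markers was at 0 in any group. Control 23 had a TMM scaling factor of 0.815, against 0.968 to 1.1 in the other libraries.

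Calpains are cysteine proteases of the cytoplasm that are switched on by calcium and cut their substrates at a few sites rather than degrading them. Capn1 and Capn2 encode the catalytic subunits of the ubiquitous enzymes, mu-calpain and m-calpain, and each pairs with the small regulatory subunit encoded by Capns1, which stabilises it. Cast encodes calpastatin, the inhibitor of both. Capn3 encodes the muscle calpain, which sits on titin in the sarcomere and does not need the small subunit, and its loss in humans causes a limb-girdle muscular dystrophy.

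RefSeq promoter stretches, from 250 bases before to 50 bases after the annotated start of a gene, were available for 4 of the 5 genes on the rat build GRCr8, which is not the build of the counts. Those of Capn2 and Capn3, both lower in set 2, and of Capns1, the uneven gene, are shown 5′ to 3′ on the strand of the gene, with capitals marking every match to 4 motifs on either strand: the E-box CANNTG bound by myogenic factors, the GC box GGGCGG, the TATA box TATAAA and the binding motif of the MEF2 factors. They lie at chr13:96732576-96732875 (minus strand, Capn2), chr3:127861340-127861639 (plus strand, Capn3) and chr1:94582172-94582471 (minus strand, Capns1).
Capn2: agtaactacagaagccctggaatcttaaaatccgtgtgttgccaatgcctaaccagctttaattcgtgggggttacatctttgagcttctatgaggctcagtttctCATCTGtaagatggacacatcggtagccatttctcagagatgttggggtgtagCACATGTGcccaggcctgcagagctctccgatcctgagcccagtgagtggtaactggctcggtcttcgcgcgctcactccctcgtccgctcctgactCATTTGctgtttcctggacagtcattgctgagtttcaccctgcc
Capn3: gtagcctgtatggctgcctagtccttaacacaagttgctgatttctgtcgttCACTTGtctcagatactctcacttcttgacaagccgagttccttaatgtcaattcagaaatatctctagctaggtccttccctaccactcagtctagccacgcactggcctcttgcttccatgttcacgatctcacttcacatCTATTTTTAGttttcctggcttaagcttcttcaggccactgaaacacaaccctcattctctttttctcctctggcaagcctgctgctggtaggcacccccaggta
Capns1: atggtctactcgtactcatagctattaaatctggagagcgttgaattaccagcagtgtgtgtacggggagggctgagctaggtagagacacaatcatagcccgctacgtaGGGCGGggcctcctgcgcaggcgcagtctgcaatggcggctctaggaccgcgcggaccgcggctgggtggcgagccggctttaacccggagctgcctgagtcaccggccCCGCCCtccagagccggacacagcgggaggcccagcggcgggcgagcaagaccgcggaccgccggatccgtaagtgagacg
The Capn3 stretch held 1 MEF2 match, which 3.3% of 33469 promoters of this length hold, and 1 E-box, which 72.1% hold. The Capn2 stretch held 4 E-box matches, of which 2 overlap each other. The Capns1 stretch held 2 GC boxes, found in 33.1% of promoters, and 30 CG dinucleotides, against a median of 7 over all promoters, and no E-box or MEF2 match. No stretch held a TATA box match, which 14.2% of promoters hold. These matches describe letters in a window and say nothing of binding.

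Between the sets, the catalytic subunits moved in different directions while the inhibitor did not pass the test. Capn1 rose, and Capn2 and Capn3 fell, in set 2 against set 1, so that 3 of the 4 tested members were called in edgeR's quasi-likelihood test at an adjusted p under 0.05, a threshold that 39.5% of all genes tested passed, 19.9% higher and 19.6% lower in set 2 (47.7% had an unadjusted p under 0.05). Levels of the members were not compared with each other, since the table holds no transcript lengths and a longer transcript collects more counts.

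**Figure D1:**
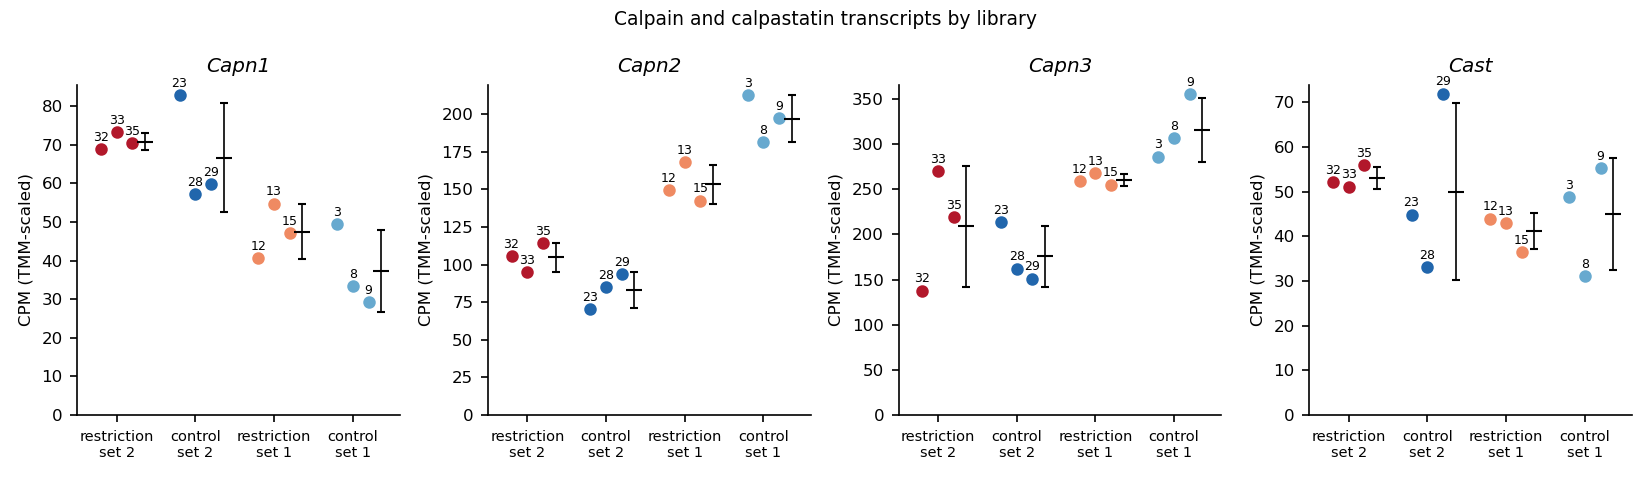
TMM-scaled CPM (linear axes from 0) of Capn1, Capn2, Capn3 and Cast in each of the 12 libraries, labelled by title number, with the group mean and SD (n = 3) as a black bar. Every set 2 library lies above every set 1 library for Capn1 and below every one for Capn2, whereas the sets overlap for Capn3 and Cast.

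Capn1, the catalytic subunit of mu-calpain, measured 68.8, 73.3 and 70.4 CPM in the set 2 restriction libraries 32, 33 and 35, and 82.8, 57.3 and 59.8 CPM in the set 2 control libraries 23, 28 and 29. In set 1 it measured 40.7, 54.8 and 47.1 CPM in the restriction libraries 12, 13 and 15, and 49.4, 33.4 and 29.3 CPM in the control libraries 3, 8 and 9. The lowest set 2 library (57.3 CPM) thus stood above the highest set 1 library (54.8 CPM), and the sets did not overlap, as for 18.7% of all genes tested. The log2 fold change of set 2 over set 1 was 0.71 ± 0.14 (SE, edgeR adjusted p = 0.0015), and leaving out 1 library at a time gave 0.60 without control 23 at the lowest and 0.84 without control 3 at the highest.

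Capn2, the catalytic subunit of m-calpain, measured 105.4, 94.8 and 114.4 CPM in the set 2 restriction libraries 32, 33 and 35, and 70.2, 85.1 and 93.7 CPM in the set 2 control libraries 23, 28 and 29. In set 1 it measured 149.5, 167.9 and 142.6 CPM in the restriction libraries 12, 13 and 15, and 212.5, 181.2 and 197.2 CPM in the control libraries 3, 8 and 9. All 4 groups were apart, in the ascending order set 2 control, set 2 restriction, set 1 restriction, set 1 control, although restriction 33 and control 29 of set 2 had overlapping counting intervals (91.3 to 98.4 CPM and 90.3 to 97.2 CPM, exact Poisson, 95%, counting error only). Of all genes tested, 18.7% had the sets apart, 12.7% the diets of set 2 and 17.6% the diets of set 1. Genes with all 4 groups apart were not counted. The log2 fold change of set 2 over set 1 came to -0.90 ± 0.11 (SE, edgeR adjusted p = 1.6e-05), and to between -0.94 and -0.85 with 1 library left out.

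Capn1, Capn2 and Cast are made in many cell types, and markers of other cells differed between the sets as well. Of 9 macrophage markers 9 were called lower in set 2, where they summed to between 55.5 and 109 CPM, against 206 to 501 CPM in set 1. Of 7 tested fibroblast and fibro-adipogenic progenitor markers 7 were lower (508 to 917 CPM in set 2 and 1260 to 1770 CPM in set 1), and of 6 adipocyte markers 5 were (126 to 259 CPM in set 2 and 197 to 285 CPM in set 1). The adipocyte sums include Fabp4, which was not called (log2 fold change -0.05), while the 5 called markers ran from -2.32 for Lep to -3.79 for Adipoq. Endothelial markers had 3 higher and 1 lower of 8 (298 to 396 CPM in set 2 and 263 to 372 CPM in set 1), Schwann cell markers 2 higher and 2 lower of 6 (66.1 to 130 CPM in set 2 and 57.3 to 115 CPM in set 1), red blood cell markers 0 of 4, at 297 to 1960 CPM in set 2 and 421 to 686 CPM in set 1, and of the lymphocyte markers 1 was tested and was lower (at most 1.98 CPM over the list in set 2 and 5.49 CPM in set 1). The part of these cells in the Capn1 and Capn2 differences was not tested, and in bulk tissue fewer cells of a type and less RNA per cell cannot be told apart.

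Capn3, the titin-bound muscle calpain, measured 137.6, 270.4 and 219.4 CPM in the set 2 restriction libraries 32, 33 and 35, and 213.6, 162.2 and 151.0 CPM in the set 2 control libraries 23, 28 and 29. In set 1 it measured 259.0, 268.0 and 255.2 CPM in the restriction libraries 12, 13 and 15, and 286.1, 306.8 and 355.2 CPM in the control libraries 3, 8 and 9. Restriction 33 alone among the set 2 libraries reached into the range of set 1. The log2 fold change of set 2 over set 1 was -0.58 ± 0.15 (SE, edgeR adjusted p = 0.0072), and -0.70 without restriction 33 and -0.45 without restriction 32.

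**Figure D2:**
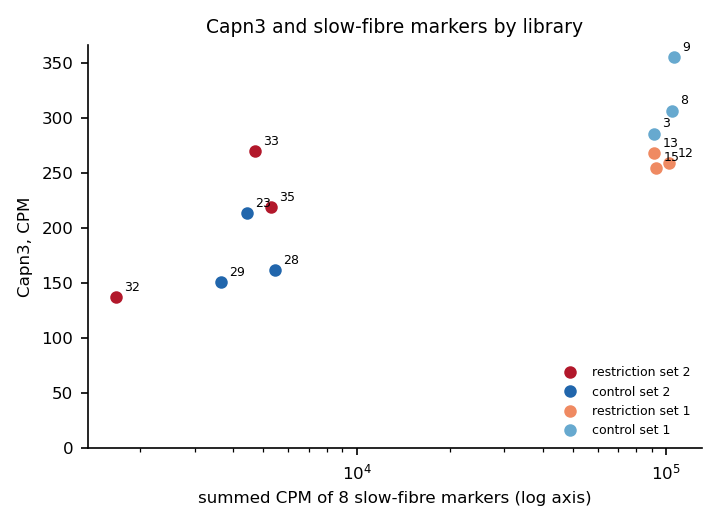
Capn3 (CPM, linear axis) against the summed CPM of the 8 slow-fibre markers (log axis) in each library, labelled by title number and coloured by group. The slow-fibre sum differs far more between the sets than Capn3 does, and restriction 32 has the lowest value of both.

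The transcripts of Capn3 and of slow fibres were both lower in set 2, by very different amounts. Of 8 slow-fibre markers all 8 were called lower, with a median log2 fold change of -4.54, against -0.58 for Capn3, so transcripts of Capn3 were kept at 137.6 CPM or more in libraries where the slow-fibre sum was 5460 CPM or less. Within the restriction libraries of set 2, restriction 32 held 1670 CPM of slow-fibre markers against 4700 CPM in restriction 33 and 5280 CPM in restriction 35, and had the lowest Capn3 value of the 12 libraries. The other set 2 libraries did not keep this order: restriction 35 had less Capn3 than restriction 33, and control 28, with the highest slow-fibre sum of set 2 (5460 CPM), held 162.2 CPM of Capn3 against 213.6 CPM in control 23 (slow-fibre sum 4420 CPM). The genes whose deviations from the group means were most like those of Capn3 over 12 libraries were Ldhb, the heart-type lactate dehydrogenase subunit (Pearson r of 0.95), Gid8 (0.95) and Ncf1 (0.95). Ldhb was lowest in restriction 32, at 138 CPM, with 330 and 288 CPM in restriction 33 and 35. These genes were picked for the highest r with Capn3, so a shared low in restriction 32 follows in part from that choice. No r was tested. A part of fibre makeup in the Capn3 values was not tested.

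Cast, which encodes calpastatin, measured 52.2, 51.1 and 55.9 CPM in the set 2 restriction libraries 32, 33 and 35, and 44.9, 33.2 and 71.9 CPM in the set 2 control libraries 23, 28 and 29. In set 1 it measured 44.0, 42.9 and 36.5 CPM in the restriction libraries 12, 13 and 15, and 48.7, 31.2 and 55.3 CPM in the control libraries 3, 8 and 9. Both diets overlapped within each set and the sets overlapped as a whole. Both control groups were spread more widely than the restriction group of their set. The log2 fold change of set 2 over set 1 was 0.26 ± 0.18 (SE, edgeR adjusted p = 0.27), with 0.08 without control 29 and 0.37 without control 28 (edgeR adjusted p = 0.092). With the replicate block the adjusted p was also 0.092, so Cast did not pass in any of these fits.

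Ratios of counts within a library do not depend on how libraries are scaled, and were used to compare the balance of the ubiquitous enzymes and their inhibitor. Transcript lengths still enter them, so a ratio is read only against the same ratio in another library. The ratio of Capn1 to Capn2 was 0.653, 0.773 and 0.615 in the set 2 restriction libraries 32, 33 and 35 and 1.18, 0.673 and 0.638 in the set 2 control libraries 23, 28 and 29. It was 0.272, 0.326 and 0.330 in the set 1 restriction libraries 12, 13 and 15, and 0.232, 0.184 and 0.148 in the set 1 control libraries 3, 8 and 9. The sets did not overlap, and the mean log2 ratio was higher in set 2 by 1.62 (two-sided exact permutation test over 12 libraries, p = 0.0022, the smallest that 12 libraries in sets of 6 can give, adjusted p = 0.0087 over 4 tests). Every set 2 library lay above every set 1 library in Capn1 and below every one in Capn2. The ratio therefore had to separate the sets, and this p restates the differences in Capn1 and Capn2. In set 1 the restriction libraries lay above the controls without overlap, and in set 2 the diets overlapped. Capn2 alone already had the diets apart in set 1, as had 17.6% of all genes tested, so the ratio there is not independent of Capn2. Over both sets restriction minus control came to 0.25 on the log2 scale (exact permutation test within sets, adjusted p = 0.44). With 1 library left out it ran from 0.17 without control 9 to 0.39 without control 23 (exact permutation test, adjusted p = 0.06).

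**Figure D3:**
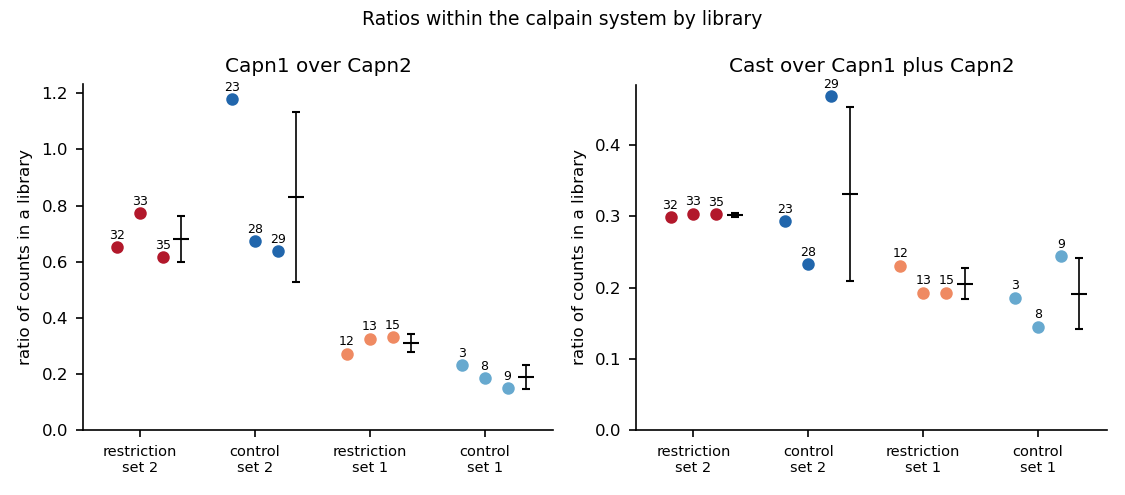
Ratios of counts within each library, labelled by title number, for Capn1 over Capn2 (left) and Cast over the sum of Capn1 and Capn2 (right), with the group mean and SD (n = 3) as a black bar. For Capn1 over Capn2 the set 2 libraries lie between 0.615 and 1.18, all above the set 1 libraries at 0.148 to 0.330.

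The ratio of Cast to the sum of Capn1 and Capn2 was 0.299, 0.304 and 0.303 in the set 2 restriction libraries 32, 33 and 35 and 0.293, 0.233 and 0.469 in the set 2 control libraries 23, 28 and 29. It was 0.231, 0.193 and 0.193 in the set 1 restriction libraries 12, 13 and 15, and 0.186, 0.145 and 0.244 in the set 1 control libraries 3, 8 and 9. It was higher in set 2 by 0.66 on the log2 scale (exact permutation test, p = 0.0043, adjusted p = 0.0087), with only control 28 below the highest set 1 library. The sum it is divided by holds Capn2, itself called lower in set 2 (log2 fold change -0.90), whereas Cast was not called (0.26, edgeR adjusted p = 0.27). This p is therefore not independent of the Capn2 difference and does not show a change in Cast. The diets did not differ detectably, with a difference of 0.03 (exact permutation test within sets, adjusted p = 0.81).

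Maternal protein restriction was compared with control within each set. None of the 4 tested members was called by edgeR in either set, averaged over the sets, or in the difference between the sets, where the calls over all genes were 0% in set 2, 0.00703% in set 1, 0.00703% for the average and 0% for the difference. At an unadjusted p under 0.05, 1 of the 4 members, Capn2, stood in each set, where 8.59% of all genes did in set 2 and 7.54% in set 1. For the average none of the 4 did, against 7.83% of all genes, and for the difference between sets 1 did, again Capn2, against 9.5%. DESeq2 and limma-voom also called 0 of the 4 members between the diets.

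Capn2 had opposite signs in the sets. Every set 2 restriction library was above every set 2 control, at 104.9 ± 9.82 CPM against 82.99 ± 11.9 CPM, and every set 1 restriction library was below every set 1 control, at 153.3 ± 13.1 CPM against 197.0 ± 15.7 CPM (SD, n = 3). The log2 fold change was 0.34 ± 0.15 in set 2 (SE, edgeR adjusted p = 0.57), or 0.23 without control 23, and -0.36 ± 0.15 in set 1 (edgeR adjusted p = 0.60). Groups did not overlap for 12.7% of genes in set 2 and 17.6% in set 1, and for 1.42% in both sets with opposite signs. The difference between the effects was 0.70 ± 0.21 (SE, edgeR adjusted p = 0.42) and did not pass. The sums of some cell type markers also had diets that did not overlap. In set 1, fast-fibre markers summed to between 13600 and 16100 CPM in restriction libraries and to between 7950 and 12100 CPM in controls, and adipocyte markers to between 197 and 206 CPM in restriction libraries and to between 246 and 285 CPM in controls. Of the 10 fast-fibre markers 8 had a log2 fold change above 0 there, while Myh4 (-3.47) and Actn3 (-1.1) went the other way. In set 2, red blood cell markers summed to between 297 and 394 CPM in restriction libraries and to between 601 and 1960 CPM in controls. None of these markers was called between the diets, and their part in the Capn2 values was not tested.

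For Capn1, restriction minus control was 0.09 ± 0.20 in set 2 and 0.35 ± 0.20 in set 1 as log2 fold change (SE, edgeR adjusted p = 0.91 and 0.70). The set 2 value was 0.00 without control 28 and 0.28 without control 23, and the set 1 value 0.20 without control 9 and 0.61 without control 3, none of them called. For Capn3 it was 0.25 ± 0.21 in set 2 and -0.28 ± 0.21 in set 1 (edgeR adjusted p = 0.73 and 0.78), with the set 2 value at 0.02 without restriction 33 and at 0.48 without restriction 32. In set 1 the Capn3 restriction libraries all lay below the controls, where diets did not overlap for 17.6% of all genes tested, and in set 2 the diets overlapped. For Cast it was 0.09 ± 0.25 in set 2 and -0.13 ± 0.25 in set 1 (edgeR adjusted p = 0.94 for each). The Cast estimate of set 2 ran from -0.14 without control 28 to 0.45 without control 29, so 1 control library set its sign. Averaged over the sets, the effects were 0.22 ± 0.14 for Capn1 (0.15 without control 9 and 0.36 without control 3), -0.01 ± 0.11 for Capn2, -0.01 ± 0.15 for Capn3 and -0.02 ± 0.18 for Cast, none of them called.

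**Figure D4:**
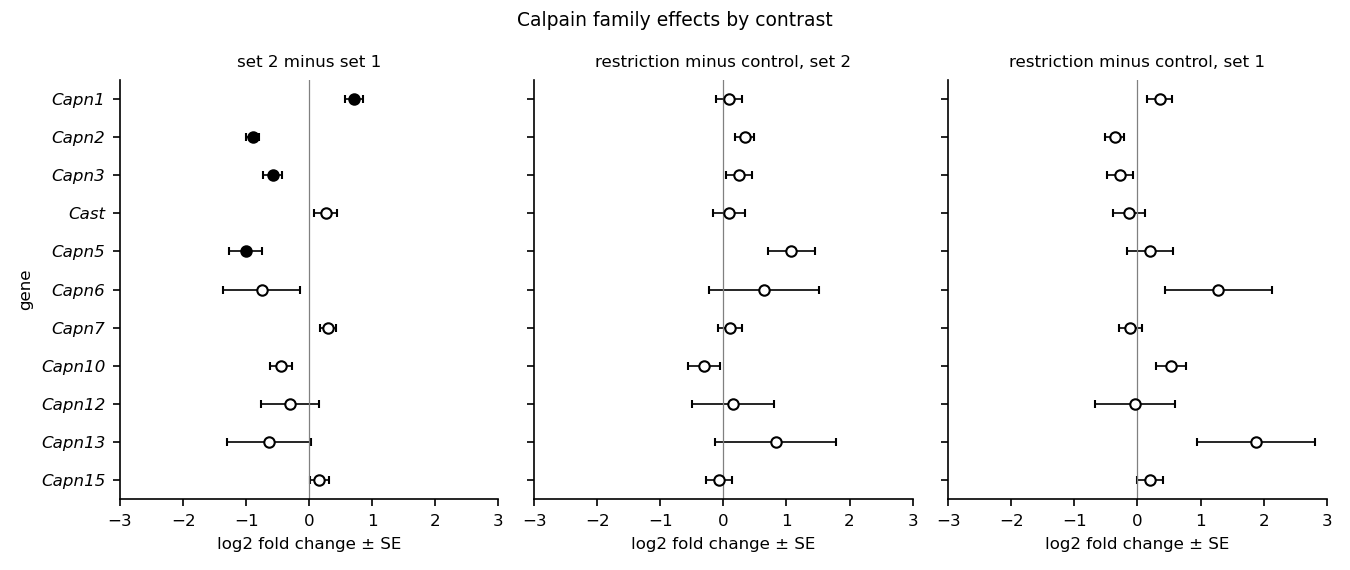
Log2 fold changes with SE of the 4 tested members and of 7 other calpain genes for set 2 minus set 1 (left), restriction minus control in set 2 (middle) and restriction minus control in set 1 (right). Filled points passed an edgeR adjusted p under 0.05, which 4 genes did between the sets (Capn1, Capn2, Capn3 and Capn5) and none did between the diets.

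Capns1, the small subunit shared by mu-calpain and m-calpain, was the most uneven member. It measured 24.8, 0.754 and 28.2 CPM in the set 2 restriction libraries 32, 33 and 35 (738, 22 and 898 counts), and 1.18, 1.52 and 1.43 CPM in the set 2 control libraries 23, 28 and 29 (22, 41 and 43 counts). In set 1 it measured 0.873, 1.42 and 0.895 CPM in the restriction libraries 12, 13 and 15 (22, 37 and 22 counts), and 3.73, 3.99 and 4.42 CPM in the control libraries 3, 8 and 9 (111, 108 and 167 counts). The libraries fell at about 3 levels: restriction 32 and 35 at the top, the set 1 controls between, and the other 7 low.

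**Figure D5:**
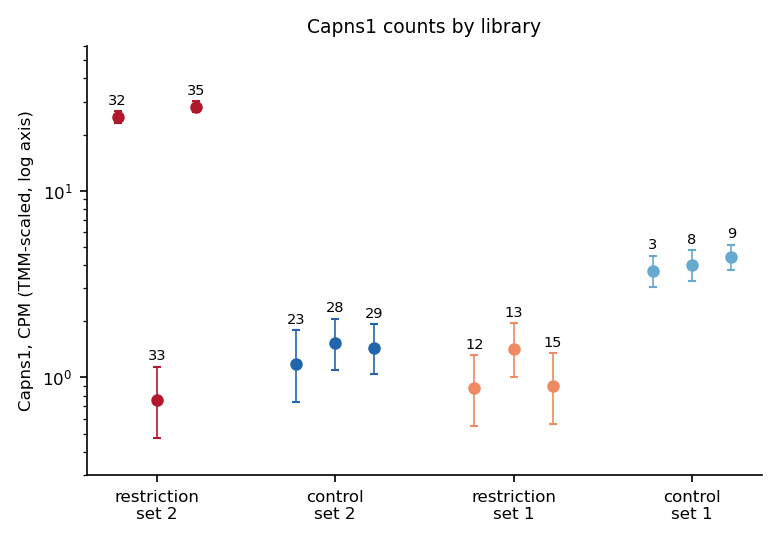
Capns1 in CPM (log axis) in each library, labelled by title number, with 95% exact Poisson intervals, which cover counting error only. Restriction 32 and 35 stand at 24.8 and 28.2 CPM, the set 1 controls between 3.73 and 4.42 CPM and the other 7 libraries between 0.754 and 1.52 CPM.

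The 95% intervals (exact Poisson), which leave out the spread between libraries, ran from 23.0 to 26.6 CPM in restriction 32 and from 26.4 to 30.1 CPM in restriction 35, against 0.473 to 1.14 CPM in restriction 33 of the same group. Restriction 32 and 35 stood 5.61-fold and 6.38-fold above the highest of the other 10 libraries, and held 73.3% of the Capns1 counts of the series. In a count made after these values were seen, Capns1 was the only 1 of 14225 genes with more than 3 times every other library in both restriction 32 and restriction 35. The libraries and the cut of that count were picked from the Capns1 values, so Capns1 had to pass, and the count is a description. The within-group SD of log2 CPM was 1.46 for Capns1, which restates its choice, and 0.27, 0.15, 0.29 and 0.36 for Capn1, Capn2, Capn3 and Cast, against a median of 0.26 over 8914 genes with a mean of at least 5 CPM.

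The catalytic partners did not show the levels of Capns1. Restriction 32, 33 and 35, which differed widely in Capns1, held 68.8, 73.3 and 70.4 CPM of Capn1 and 105.4, 94.8 and 114.4 CPM of Capn2. The count ratio of Capns1 to the sum of Capn1 and Capn2 was accordingly 0.142, 0.00449 and 0.153 in restriction 32, 33 and 35, and lay at 0.00771 to 0.0107 in controls of set 2. In set 1 it lay at 0.00459 to 0.00638 in restriction and at 0.0142 to 0.0195 in control libraries. Over 12 libraries the deviations of Capns1 from the group means had a Pearson r of -0.09 with those of Capn1, 0.49 with Capn2, -0.61 with Capn3 and 0.08 with Cast, values that rest mainly on the set 2 restriction libraries and are given as a description.

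The Capns1 row itself carries a limit. In GRCr8 Capns1 overlaps Cox7a1, which encodes the heart and muscle isoform of a cytochrome c oxidase subunit, and the libraries do not mark strand, so reads in the shared stretch are uncertain. The Cox7a1 row held 0.067 to 1.04 CPM over the 12 libraries. Cox4i1 and Cox6a2, which encode other subunits of cytochrome c oxidase, held 1231 to 1688 CPM and 2739 to 6825 CPM. Whether the low values of the Capns1 and Cox7a1 rows measure expression of these genes was not tested. Of the 8 protein-coding genes nearest to Capns1 there, 6 had a single row, and in 0 of those 6 were restriction 32 and 35 the 2 highest libraries. Zfp260, Zfp382, Cox7a1 and Ovol3 never exceeded 1.04 CPM, and only Polr2i (0.63 to 3.26 CPM) and Tbcb (3.7 to 17.1 CPM) held more. At such levels the count can say little about the locus. How reads were assigned at this locus was not tested. Capn1, Capn2 and Cast each overlap a long noncoding RNA in GRCr8, and Capn3 overlaps Zfp106, a pseudogene and a noncoding RNA, so their rows share that uncertainty.

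The genes most like Capns1 varied far less than it did. Over 12 libraries, the genes with the highest Pearson r of log2 CPM with Capns1 included Ccdc102a (0.81), Sh3bp4 (0.79), Nup205 (0.78) and Zbtb48 (0.78). Sh3bp4 held 9.4 and 10.4 CPM in restriction 32 and 35 against 5.45 to 7.75 CPM in the other 10 libraries. By deviations from the group means the genes were Aldh16a1 (0.96), Smpd2 (0.90), Rad17 (0.88), Zbtb24 (0.88) and Aasdhppt (0.88). Aldh16a1 held 21.7 and 22.2 CPM in restriction 32 and 35 against 15.5 CPM in restriction 33. Both rankings rest mainly on the same 3 libraries of set 2, since those hold most of the variation of Capns1.

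The genes most like the other members, by the Pearson r of deviations over 12 libraries, were different for each. For Capn1 they were Ap1s2 (0.98), Klhl36 (0.97) and Adipoq, the adipocyte hormone adiponectin (0.96), for Capn2 they included Cggbp1 (0.96) and the kinase Pkn2 (0.91), and for Cast they were Vps8 (0.90), Gfpt1 (0.90) and Tssc4 (0.89). Adipoq held 64.5 CPM in control 3 against 28.7 and 17 CPM in control 8 and 9, the order that Capn1 followed with 49.4, 33.4 and 29.3 CPM. This shared order follows in part from picking Adipoq for its likeness to Capn1. All these genes were picked as the highest r among genes with a mean of at least 5 CPM. Group means of 3 libraries each were removed first, so high r can arise without a relation. No r was tested, and the names are a description.

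Of 12 other calpain genes listed, 11 had a row and 7 passed the filter. Between the sets 1 of the 7 fell and none rose (19.6% of all genes were called lower and 19.9% higher), with a median log2 fold change of -0.45 against -0.01 for all genes tested. Capn5, which lacks the calcium-binding domain shared by Capn1 and Capn2, averaged 3.22 ± 0.579 CPM in restriction and 1.51 ± 0.425 CPM in control libraries of set 2, and 4.79 ± 1.06 CPM in restriction and 4.18 ± 1.90 CPM in control libraries of set 1 (SD, n = 3). It fell by 1.01 on the log2 scale in set 2 against set 1 (SE 0.26, edgeR adjusted p = 0.0073). Capn10, an atypical calpain, stood at -0.45 ± 0.17 (edgeR adjusted p = 0.051). Capn7 was at 0.30 ± 0.13, Capn15 at 0.16 ± 0.15, Capn6, which lacks the catalytic cysteine, at -0.75 ± 0.61, Capn12 at -0.30 ± 0.46 and Capn13 at -0.64 ± 0.67, none of them called. Between the diets edgeR called 0 of the 7 in either set, and 1 in each set had an unadjusted p under 0.05, where 8.59% of all genes did in set 2 and 7.54% in set 1. Capn8 and Capn11 had 0 counts in the 12 libraries, which allows up to 3 counts, or 0.079 to 0.16 CPM, per library. Capn9 had 4 counts in control 9 and 0 elsewhere. Capns2, a copy of the small subunit gene, had 5 counts in restriction 33, 9 in restriction 12, 4 in restriction 15 and 0 in the other 9 libraries. Capn14 had no row under that symbol.

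Of 16 genes whose products bind calpain 3 or are cut by calpains in muscle, 5 rose and 4 fell between the sets, where 19.9% of all genes were called higher and 19.6% lower, and the median log2 fold change was 0.11 against -0.01 for all genes. The 4 largest called changes were those of Ankrd2, a stretch-response protein that binds titin near calpain 3 (-5.64 ± 0.45), Aldoa, the muscle aldolase (2.22 ± 0.13), Ankrd23, a relative of Ankrd2 (0.90 ± 0.13), and Ahnak, a membrane-repair scaffold (0.81 ± 0.15), each as log2 fold change with SE and with an edgeR adjusted p of 0.00068 or less. Ttn, which encodes titin, the anchor of calpain 3, was at 0.03 ± 0.13 (edgeR adjusted p = 0.86). Between the diets edgeR called 0 of the 16, and 4 in set 2 and 0 in set 1 had an unadjusted p under 0.05, as did 8.59% of all genes in set 2 and 7.54% in set 1. Ankrd2 had the smallest p of the list in set 2, named after its values were seen, with restriction minus control at -2.33 ± 0.55 (edgeR adjusted p = 0.42).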

How the data were processed

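The authors deposited raw counts per gene for 12 libraries. Per the submitters' processing notes, Trimmomatic, HISAT2, featureCounts and DESeq2 were used with Rnor_6.0; their versions and settings are not stated there. Per the labels, a TruSeq RNA kit was used, and it leaves strand unmarked. A second deposited table, the same counts after scaling each library by a constant, was left out. filterByExpr kept 14225 of 24648 rows. Scaling was by TMM, and edgeR 4.0.16 (R 4.3.3) fitted 1 mean per set-by-diet group over 12 libraries with quasi-likelihood tests and Benjamini-Hochberg adjustment over all genes. SE is the log2 fold change divided by the root of F. CPM are TMM-scaled. Log2 CPM for likeness used a prior count of 2, genes with a mean of at least 5 CPM, and passed over unnamed loci and names on more than 1 row. Count ratios were tested by exact permutation.

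The named genes were the 5 members, every other calpain gene that passed the filter, up to 4 called genes per contrast from the partner list, and the genes most like each member. Members and lists were chosen with earlier results of these data known. Alternatives were DESeq2 1.42.0, limma-voom (limma 3.58.1), other scalings and filters, single sets, no set term, a replicate block and leaving out each library. Libraries whose title numbers differ by 20 deviated together in all 6 pairs (correlations from 0.15 to 0.32 over 8914 genes). Other combinations of a set 1 and a set 2 library ran from -0.32 to 0.27, a range that overlaps that of the pairs. Of the 6 set 1 libraries, 5 were most like the set 2 library of their own number. The pairs rest on these data alone and are not established, since no label names an animal. Libraries of 1 group differed by more than sampling noise in every pair (chi-square over its degrees of freedom, 24.5 to 147). The fit was tested on simulated counts. Protein sequences were not used here, and some genes that the naming rule picks are not reported here.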

Additional observations from a re-analysis of the deposited data

Results flagged for a closer look

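The diet effect on Capn2 had opposite signs in the sets: every set 2 restriction library was above every set 2 control, and every set 1 restriction library was below every set 1 control. Diets lay apart in both sets with opposite signs for 1.42% of all genes tested. The difference between the effects in log2 fold change was 0.70 ± 0.21 (SE, edgeR adjusted p = 0.42), with 0.59 without control 23 at the lowest and 0.80 without control 29 at the highest over the fits that left out 1 library, and adjusted p from 0.28 to 0.70 in those fits. DESeq2 gave an adjusted p = 0.11. It did not pass the threshold in any fit.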

How the results depend on the processing

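Capn1, Capn2 and Capn3 stayed called between the sets, with unchanged signs, under all 8 alternative fits of that comparison and in all 12 fits that left out 1 library, and 0 of the 4 tested members was called for diet in any fit. With the replicate block 3 members were called between the sets, at 0.72 for Capn1, -0.90 for Capn2 and -0.62 for Capn3, and it changed no other call. With library size alone as scaling, which put the median of all genes at -0.11 against -0.01, Capn1 stood at 0.57 and Capn3 at -0.70. The pairs gave an exact sign-flip p = 0.031 for both count ratios between the sets, the smallest that 6 pairs allow. This test was added after seeing the data. Both ratios were higher in set 2 in 6 of 6 pairs, which for Capn1 to Capn2 follows from the sets lying apart in both genes. For Cast to Capn1 plus Capn2 it is not independent of the Capn2 difference. Diet effects near 0 changed sign. Averaged over the sets with library size alone, Capn2 was at 0.04, Capn3 at 0.06 and Cast at 0.03, and Cast was at 0.02 in limma-voom, with or without a within-pair correlation. With 1 library left out, the average ran from -0.06 to 0.04 for Capn2, from -0.13 to 0.10 for Capn3 and from -0.13 to 0.16 for Cast. Cast ran from -0.14 to 0.45 in set 2 and from -0.34 to 0.04 in set 1, Capn1 from 0.00 to 0.28 in set 2, the difference between sets for Cast from 0.00 to 0.58, and the diet difference in the ratio of Cast to Capn1 plus Capn2 from -0.08 to 0.17. The cause was not tested. Of the 5 genes most like Capns1, 1 was shared with a ranking by Spearman and 0 with one by deviations from group means. Counts of all genes called for diet were 0 in set 2, 1 in set 1 and 1 for the average in edgeR, and in that order 40, 38 and 55 in DESeq2, 0, 3 and 0 in limma-voom, 3, 6 and 11 without a filter on low counts and 4, 22 and 8 without control 23. They were 5 in set 1 fitted alone, 0 for the average without a set term, and 0 to 2 without any other single library. For the difference between sets they were 0 in edgeR, 30 in DESeq2 and 1 without a filter. The 3 libraries per group and, for Capns1, as few as 22 counts limit precision.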
